A study of Mus musculus with 18 samples.

Results

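The cells described here were KPCA.B cells, a mouse line labelled as high-grade serous ovarian cancer, that carried the hairpin shNdufa5_1 against Ndufa5. The comparison set cells grown in medium conditioned by senescent cells (SCM) against cells grown in medium conditioned by proliferating cells (PCM). It used 6 of the 18 libraries of the series, 3 in SCM and 3 in PCM, chosen by their labelled hairpin and medium. For SCM the medium came from cells made senescent with the platinum drug cisplatin, which damages DNA by crosslinking it, and for PCM from proliferating cells given DMF, named in the labels as the control treatment. Every group was grown in a 1:1 mix of conditioned and fresh medium, and the fresh part held high-glucose DMEM, 4% heat-inactivated serum, 2 ng/mL of EGF and a supplement of insulin with transferrin and selenium. The shControl cells, labelled as wild type for Ndufa5, and the cells labelled shNdufa5_2, a second knockdown hairpin, were given both media in the same way, with 3 libraries in each group. All libraries came from the 1 line, the hairpin was present in both media, and whether a group's libraries stem from separate cultures is not stated in the labels. The p-values therefore reflect only how these samples spread, a spread that may be technical. The question was how the secretions of senescent cells act on the transcripts of neighbouring cells, and how Ndufa5 bears on that response.

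Senescence is a lasting arrest of division in which cells go on secreting cytokines, chemokines, growth factors, proteases and matrix proteins, and cells nearby take these up as signals. Ndufa5 encodes an accessory protein of complex I, which feeds electrons from NADH into the mitochondrial respiratory chain. Cells sense sterols in the endoplasmic reticulum: when sterols run low, SCAP carries the factor SREBP2 to the Golgi, where it is cut and released to switch on the genes of cholesterol synthesis and uptake. Interferons act through STAT factors on genes for antiviral proteins and for MHC class I, the molecules that display peptides to T cells. Immediate early genes, such as Egr1, are switched on within minutes of a growth factor signal through the MAPK cascade.

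Values were FPKM as the authors deposited them. These are fragments counted on a gene, divided by its length in kilobases and by a denominator of the library in units of 1 M (mega). The denominator was recovered with the depth and was not the sum of the library's fragments. It was 33.7 M for 38.9 M fragments in shControl SCM replicate 2, and 35.2 M for 33.8 M in shControl PCM replicate 2. The median over genes of a library's ratio to the geometric mean of all libraries was 1.01 in every library. By that measure the deposited libraries were already on an equal scale. The values were compared as log2(FPKM + 1), on which the changes of low genes come out too small. All log2 differences below are on that scale and are SCM minus PCM unless stated otherwise. The depth behind them, recovered from the steps of the low values, was 17.0, 20.8 and 17.1 M fragments in SCM and 16.4, 15.3 and 15.8 M in PCM. Replicates correlated across the 11084 genes tested at 0.988 to 0.990 in SCM and at 0.979 to 0.989 in PCM, where replicate 2 was the shallowest library and had the highest level of Gm23935, a 57 bp feature of ribosomal RNA type, at 99866 FPKM. The other PCM libraries had 42110 and 31614 FPKM of it, and those in SCM 55490, 59574 and 29578 FPKM. Keratins were abundant, with Krt18 at 966, 920 and 963 FPKM in SCM and 797, 761 and 787 FPKM in PCM, and Pax8, a transcription factor of Müllerian epithelium, was present at 7.49 to 8.02 FPKM in SCM and 8.19 to 8.55 FPKM in PCM. Epcam was at or below 0.399 FPKM, and Wt1 and Muc16, which many serous carcinomas express, were listed at 0 in all 6 libraries.

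Markers of leukocytes and endothelium were low or absent. Of 19 leukocyte markers, 10 were at 0 in all 6 libraries, among them Cd3e and Itgam, 18 had a mean below 0.1 FPKM, and the list summed to 1.14 to 2.48 FPKM in SCM and 1.26 to 2.17 FPKM in PCM. Of 11 endothelial markers 4 were at 0 throughout, and the sum was 4.92 to 6.36 FPKM in SCM and 2.80 to 3.17 FPKM in PCM, mostly from Plvap, a protein of endothelial fenestrae, at 5.49, 4.24 and 5.71 FPKM in SCM, against 2.64, 2.20 and 2.49 FPKM in PCM. The 12 fibroblast markers summed to 45.5 to 47.9 FPKM in SCM and 36.7 to 36.8 FPKM in PCM, with Pdpn and Col3a1 the highest. Thy1 was at 0 in all 6 libraries, and Fap, Postn and Lum stayed under 0.1 FPKM. The 7 mesothelial markers, of which 4 were at 0 throughout, summed to 401 to 412 FPKM in SCM and 352 to 360.3 FPKM in PCM, nearly all of it from Krt19, a keratin also of epithelium, at 338.9 to 348 FPKM in SCM and 279.7 to 294 FPKM in PCM, and from Msln, mesothelin, which ovarian carcinomas also express. The part of such cells in the results below was not tested.

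Ndufa5 (ENSMUSG00000023089, chromosome 6, 24518666 to 24528013 on the minus strand, GRCm38) was at 6.46, 6.78 and 6.23 FPKM in SCM, against 6.23, 6.39 and 6.85 FPKM in PCM with shNdufa5_1, and the groups overlapped. With shControl it was at 22.3, 26.2 and 20.9 FPKM in SCM, against 15.2, 19 and 22.1 FPKM in PCM. The shNdufa5_1 means were thus 28.0% of shControl in SCM and 34.6% in PCM, and exact two-sided permutation tests gave p = 0.1 in each medium, the smallest that 3 against 3 libraries allow. Between the media the shNdufa5_1 level differed by 0.00 (95% interval -0.26 to 0.26, exact permutation p = 0.9).

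In SCM, shNdufa5_1 cells had more transcript of secreted defence proteins, of sterol synthesis enzymes, of extracellular matrix genes and of ribosomal proteins, and less of splicing factors and chromatin modifiers. Most changes were small. Of 11084 genes, 4687 (42.3%) were called at an adjusted p under 0.05 (limma, Benjamini-Hochberg), 2493 up (22.5%) and 2194 down (19.8%). With every library rescaled to the same sum of FPKM, called equal totals below, 1212 were called up (10.9%) and 1949 down (17.6%). The feature Gm23935 is part of that sum, at 99866 of 368936 FPKM in shNdufa5_1 PCM replicate 2 and 31614 of 298724 FPKM in replicate 3. Its spread between libraries therefore enters the equal totals. On the deposited scale 26 rose at least 2-fold on the log2(FPKM + 1) scale (0.235%) and 7 fell at least 2-fold (0.0632%). The same comparison in shControl called 6863 genes (61.9%), with 254 up at least 2-fold (2.29%) and 37 down (0.334%). Of the genes that rose with shNdufa5_1, 1915 rose in shControl as well, 501 were not called there and 77 fell, and of those that fell, 1702 fell in shControl, 425 were not called and 67 rose. Both sets of cells have their own SCM and PCM libraries, so these comparisons share none, but they share 1 estimate of spread per gene. In shControl 31.7% of all genes were called up and 30.2% down. Differences between the responses depend on the scale of the libraries, and the FPKM of the shControl libraries summed to higher totals in SCM. On the deposited scale the median log2 difference of all genes was 0.02 with shNdufa5_1 and 0.00 in shControl, and the median difference between the responses was -0.01. Equal totals moved these medians to -0.03, -0.50 and 0.46, so on that scale the median gene of shControl was no longer near 0. There the difference between the responses was positive for 6988 genes (63%) and negative for 85 (0.767%), the background for the counts of differences given on that scale. Those counts are to be read beside the shift of the median over all genes. List counts of such differences are therefore given on both scales, the deposited one first, and the genes whose difference turns round on equal totals are named.

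The changes followed the base composition and length of the genes. Across 11074 genes, the log2 difference with shNdufa5_1 correlated with the GC content of the exons at Spearman's rho of 0.539 and with exon length at -0.235, against 0.527 and -0.322 in shControl, as a description over genes that are not independent replicates. Genes called up had a median GC content of 54.1% and 3610 bp of exons, and genes called down 43.7% and 5996 bp. In the decile of genes with the lowest GC content 2.17% were called up and 56.0% down, and in the decile with the highest 45.9% and 2.08%. The median log2 difference climbed from -0.29 in the lowest decile to 0.20 in the highest with shNdufa5_1 and from -0.32 to 0.33 in shControl, while in the libraries labelled shNdufa5_2 it lay between -0.04 and 0.05 in every decile. After removal of each library's trend with GC content and length, 1665 genes were called up (15%) and 1573 down (14.2%). What share of the response this trend makes up was not tested, so the counts of each gene list are followed by those with the trend removed and those on equal totals. Shares of a list that are near those of all genes on the same scale are no result about the list. Of the 195 responses of genes named here, 26 were no longer called in their direction with the trend removed: Bub1, C3, Cdkn1a, Cenpe, Cycs, Dusp2, Ebp, Egr3, Eif2ak2, Ggps1, Hif1a, Hspb1, Ifit2, Kctd11, Kif20b, Krt18, mt-Cytb, Ndufs1, Npc1, Nr4a1, Sarnp, Scap, Snai1, Tgfbr1, Tubb2b and Zeb2. On equal totals 16 were not: Cdkn1a, Csf1, Csf2, Dusp2, Ebp, Egr3, Hbegf, Hmgcs1, Hspb1, Kctd11, Kif2c, Mbtps1, Scap, Scd1, Snrpa and Tubb2b.

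**Figure D1:**
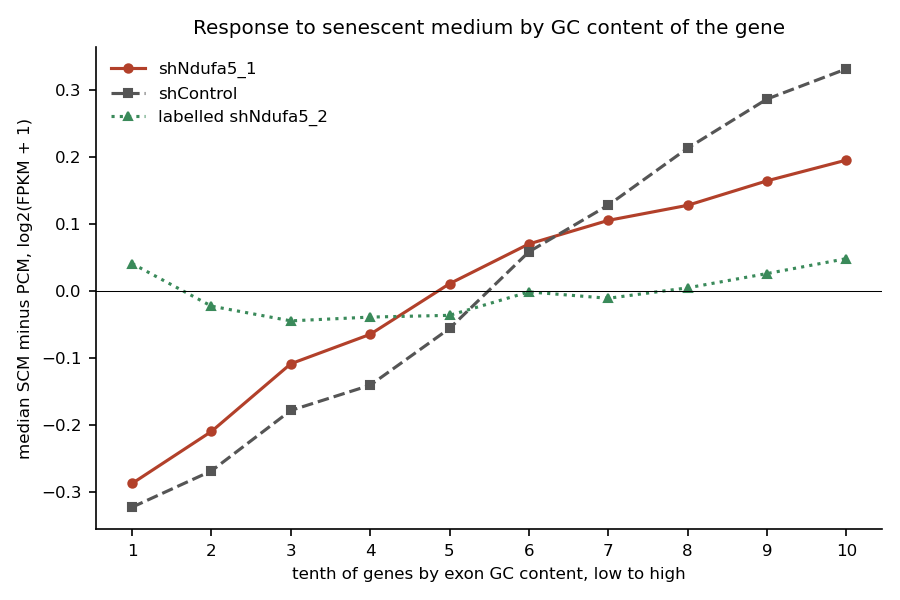
Median log2(FPKM + 1) difference between SCM and PCM in each decile of genes by exon GC content, from low to high, for shNdufa5_1, shControl and the libraries labelled shNdufa5_2. The shNdufa5_1 line climbs from -0.29 to 0.20 and the shControl line from -0.32 to 0.33, while the third line stays between -0.04 and 0.05.

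The genes of largest rise and fall were named from called genes whose SCM and PCM libraries did not overlap, as was so for 27.1% of all genes with SCM higher and 25.1% with SCM lower, so their separation follows from that choice. The largest rise was that of Lcn2, lipocalin 2 (ENSMUSG00000026822, chromosome 2, 32384633 to 32388252 on the minus strand), a secreted protein that withholds iron from bacteria by binding their siderophores. Lcn2 was at 10.5, 10.2 and 9.09 FPKM in SCM, against 1.80, 2.30 and 1.84 FPKM in PCM. All SCM libraries lay far above all PCM libraries, a 5.01-fold ratio of means and a log2 difference of 1.88 (SE 0.08, adjusted p = 2.03e-09). Aldh3a1, an aldehyde dehydrogenase and the next of the genes named, was at 28.0, 25 and 25 FPKM in SCM, against 8.75, 8.69 and 7.94 FPKM in PCM (log2 difference 1.51, SE 0.09, adjusted p = 1.83e-08). Col6a1, a chain of collagen VI (ENSMUSG00000001119, chromosome 10, 76708792 to 76726168 on the minus strand), was at 16.6, 15.4 and 15.8 FPKM in SCM, against 5.82, 4.69 and 5.60 FPKM in PCM (log2 difference 1.42, SE 0.07). Il33, an alarmin cytokine of epithelial cells (ENSMUSG00000024810, chromosome 19, 29925114 to 29960718 on the plus strand), was at 38.8, 35.7 and 38.6 FPKM in SCM, against 14.3, 12.7 and 16.0 FPKM in PCM (log2 difference 1.34, SE 0.10).

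Ccl7, a chemokine that draws monocytes, was at 7.95, 7.72 and 9.71 FPKM in SCM, against 3.31, 1.98 and 3.35 FPKM in PCM, and Rdm1, a homologue of the recombination protein Rad52, at 4.98, 4.53 and 4.45 FPKM in SCM, against 1.61, 0.805 and 1.51 FPKM in PCM. Their log2 differences were 1.30 (SE 0.22) and 1.31 (SE 0.11), and PCM replicate 2 was the lowest library of both. Mvd, which makes isopentenyl diphosphate from diphosphomevalonate, rose by 1.29 on the log2 scale and is described with the sterol genes. Ndrg2, Ngfr, the low-affinity neurotrophin receptor, and the water channels Aqp8 and Aqp1 rose by 1.25, 1.08, 1.17 and 1.08. Mgp, a matrix protein that inhibits calcification, Aldoc, an aldolase of glycolysis, and Oaf, a secreted protein, rose by 1.04, 1.04 and 1.07. Rpl7a, of the large ribosomal subunit, completed the 15 genes of largest rise at 1.06 (SE 0.24, adjusted p = 0.00218), with 180.1, 229.8 and 153 FPKM in SCM, against 93.1, 75.0 and 98.1 FPKM in PCM, and its reads may be shared with processed pseudogenes. Among genes with rises at least as large, 8 with clone or model names and 1 feature with under 300 bp of exons were passed over.

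Among the 15 named genes of largest fall were a nuclear RNA, a circadian factor and proteins that handle RNA. Neat1, the noncoding RNA that scaffolds paraspeckles (ENSMUSG00000092274, chromosome 19, 5824708 to 5845478 on the minus strand), was at 16.3, 18.3 and 16.6 FPKM in SCM, against 31.1, 30.3 and 29.4 FPKM in PCM. The SCM libraries were all well below the PCM libraries, with a log2 difference of -0.79 (SE 0.05, adjusted p = 7.53e-08). Clock, a core transcription factor of the circadian clock (ENSMUSG00000029238, chromosome 5, 76209868 to 76304792 on the minus strand), was at 3.93, 4.19 and 4.05 FPKM in SCM, against 7.03, 7.25 and 8.29 FPKM in PCM (log2 difference -0.75, SE 0.06, adjusted p = 1.58e-07). Nop58, a core protein of the box C/D particles that guide methylation of ribosomal RNA, was at 10.8, 10.6 and 10.9 FPKM in SCM, against 18.4, 18.1 and 19 FPKM in PCM (log2 difference -0.73, SE 0.04, adjusted p = 1.38e-08).

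Further falls were those of Thoc1, of the complex that couples transcription to mRNA export (-0.78), Gtf2h1, of the transcription factor TFIIH (-0.76), Esf1, which processes pre-ribosomal RNA (-0.77), and Sarnp, an mRNA export protein (-0.74, SE 0.23). The zinc finger gene Zfp959 had the largest fall of the genes named (-0.90, SE 0.13), at 0.819, 1.10 and 0.692 FPKM in SCM, against 2.55, 3.08 and 1.92 FPKM in PCM, and it belongs to a family of near-identical genes among which reads can be split. Relch, a RAB11-binding protein of cholesterol transport between organelles (-0.79), Wsb1, a ubiquitin ligase adaptor (-0.72), Fnip1, a folliculin partner of nutrient sensing (-0.72), Ranbp6, of the importin family (-0.75), Fam13b (-0.76) and Rtl10, derived from a retrotransposon (-0.73, SE 0.26), fell as well. The histone gene Hist1h2bg, whose main mRNA has no poly(A) tail, was at 0.382, 0.698 and 1.04 FPKM in SCM, against 2.00, 2.67 and 1.18 FPKM in PCM (-0.78, SE 0.23). Among genes with falls at least as large, 15 with clone or model names and 3 short features were passed over.

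**Figure D2:**
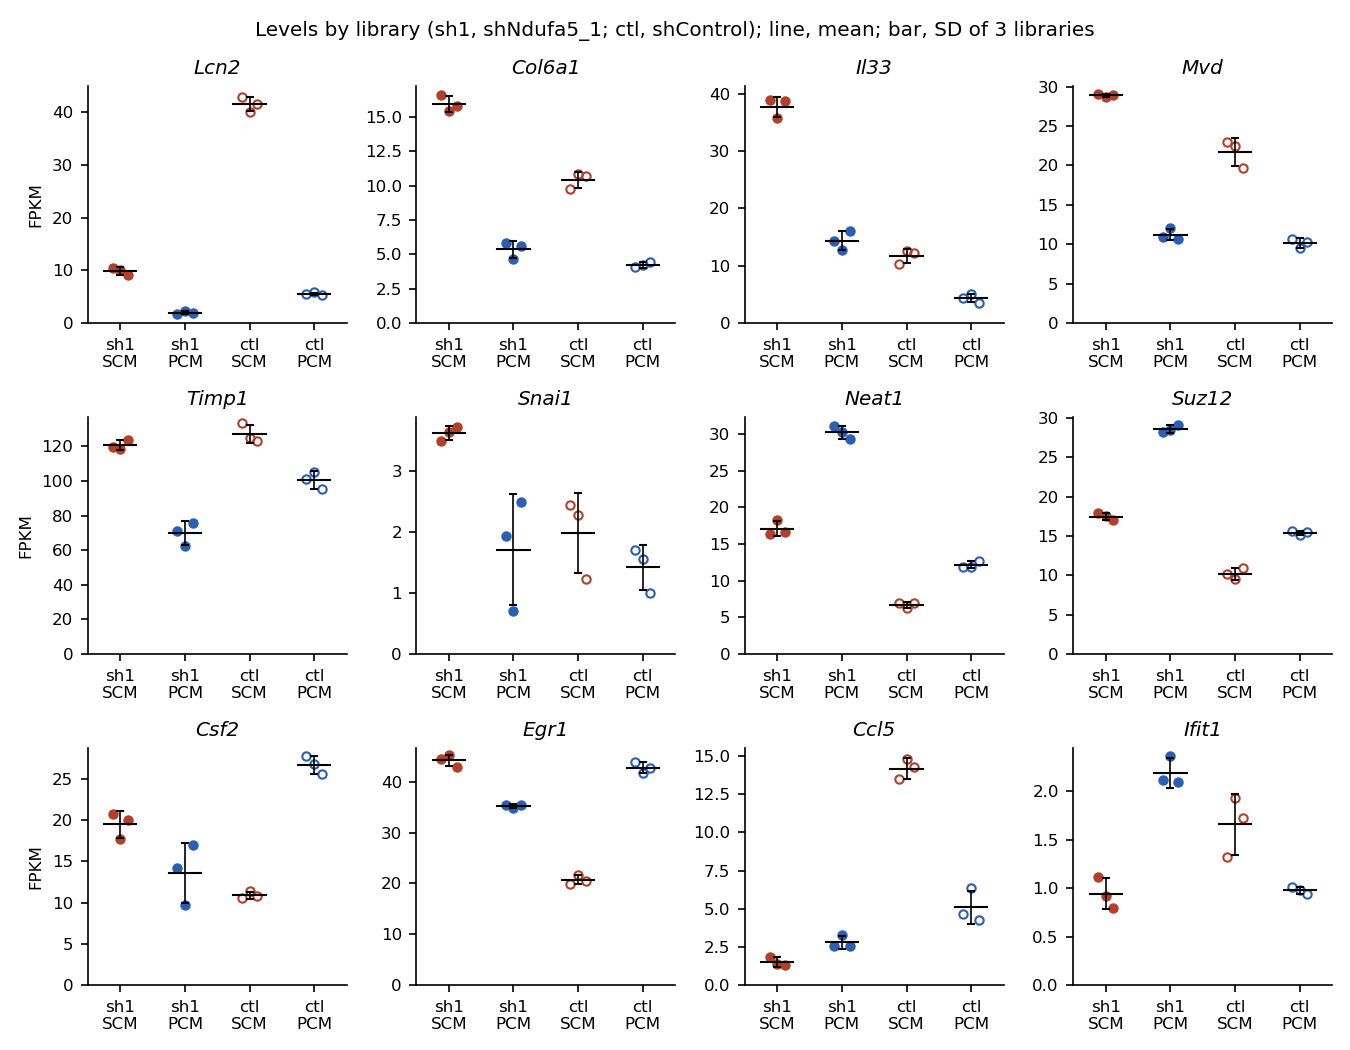
FPKM in each library for 12 genes, with shNdufa5_1 (filled points) in SCM and PCM and shControl (open points) in SCM and PCM, the line marking the mean and the bar the SD of 3 libraries. Lcn2, Col6a1, Il33, Mvd and Timp1 are higher in SCM in both kinds of cells, Neat1 and Suz12 are lower, and Csf2, Egr1, Ccl5 and Ifit1 differ in direction between shNdufa5_1 and shControl.

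Sterol synthesis genes rose along nearly the whole pathway. Of 21 genes of cholesterol synthesis tested, 17 rose and 1 fell, with a median log2 difference of 0.52 against 0.02 over all genes tested (18 up and 0 down with the trend removed, 15 and 1 on equal totals). These genes took 0.215%, 0.215% and 0.213% of all fragments in SCM and 0.153%, 0.157% and 0.156% in PCM. The promoters of this pathway carry binding sites for SREBP2 and its partner NF-Y, so the letters of both were looked for in the RefSeq promoter windows (GRCm38.p6, 250 bases before to 50 after the start), on both strands. A promoter was in the table for 16 of the 21 genes, and 15 of the 16 held the NF-Y box CCAAT, against 43.4% of the 8124 tested genes with a promoter in the table and 37.4% of all 32851 promoters. The box was also in 71.1% of G2 and mitosis genes with a promoter, 64.3% of MHC class I genes and 66.7% of fatty acid synthesis genes. It was in 50% of sterol sensing, uptake and export genes and in 30% of interferon-stimulated effectors. The sterol regulatory element core TCACNCCAC was in 1 of the 16 cholesterol synthesis genes, Hmgcs1, and in 1.32% of the tested genes. In the sterol sensing and the fatty acid lists it was in 0 of 12 each. In Hmgcs1, which held both, the matches do not overlap. Windows of 100 bases around the match follow for the 4 genes with a match that rose most and for Hmgcs1, with the NF-Y box or its reverse complement in capitals, and for Hmgcs1 the sterol element alone in capitals. Mvd lies at chr8:122443414-122443513 (minus strand), Tm7sf2 at chr19:6067846-6067945 (minus), Pmvk at chr3:89454357-89454456 (plus), Nsdhl at chrX:72918364-72918463 (plus) and Hmgcs1 at chr13:119690168-119690267 (plus).
Mvd: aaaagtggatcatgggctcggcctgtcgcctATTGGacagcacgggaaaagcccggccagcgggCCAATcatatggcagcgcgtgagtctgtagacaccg
Tm7sf2: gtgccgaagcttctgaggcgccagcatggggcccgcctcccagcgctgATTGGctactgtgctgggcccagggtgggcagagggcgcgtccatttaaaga
Pmvk: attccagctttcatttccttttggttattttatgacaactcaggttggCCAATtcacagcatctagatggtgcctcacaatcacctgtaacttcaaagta
Nsdhl: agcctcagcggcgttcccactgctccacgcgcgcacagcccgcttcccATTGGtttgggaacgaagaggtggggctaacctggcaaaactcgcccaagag
Hmgcs1: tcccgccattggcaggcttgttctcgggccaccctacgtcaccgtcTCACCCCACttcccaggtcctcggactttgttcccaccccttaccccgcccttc
The Mvd window held the NF-Y box on both strands, and the others held 1 match each of the motif in capitals. A match of letters says nothing of binding in these cells.

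At the head of the pathway, Acat2, which joins acetyl-CoA units, was at 41.1, 38.1 and 40.3 FPKM in SCM, against 21.5, 18.8 and 19.1 FPKM in PCM (log2 difference 0.98, SE 0.11, adjusted p = 6.28e-06). Hmgcs1, the synthase of the next step, rose by 0.24 (SE 0.06), at 18.9, 19.1 and 21.1 FPKM in SCM, against 17.5, 15 and 17.1 FPKM in PCM. The media were separate in both genes, and the step was larger in Acat2. Among the enzymes that turn mevalonate into isoprenoids, Mvd rose most, at 29.0, 28.7 and 29.0 FPKM in SCM, against 10.9, 12.1 and 10.7 FPKM in PCM, a 2.57-fold ratio (log2 difference 1.29, SE 0.07, adjusted p = 7.56e-09), with Pmvk at 0.79, Mvk at 0.51 and Fdps at 0.69. Fdps was low, at 2.10, 2.73 and 1.97 FPKM in SCM, against 1.15, 1.02 and 0.898 FPKM in PCM, and reads of its pseudogenes may bear on it. Ggps1, which draws isoprenoids off towards protein prenylation, was the gene that fell (-0.32, SE 0.06), at 7.39, 7.48 and 6.78 FPKM in SCM, against 9.15, 8.81 and 9.89 FPKM in PCM.

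In the squalene and sterol part, Fdft1 rose by 0.60, Sqle by 0.32 and Lss, which closes the first sterol ring, by 0.39. Cyp51, the sterol 14-alpha demethylase, was at 48.7, 46.8 and 45.8 FPKM in SCM, against 28.3, 27.1 and 28.4 FPKM in PCM, with no overlap (log2 difference 0.73, SE 0.06, adjusted p = 3.09e-07). Tm7sf2 rose by 0.86, Msmo1 by 0.36, Nsdhl by 0.74 and Ebp by 0.33. Dhcr7, which reduces 7-dehydrocholesterol, rose by 0.64, at 22, 21.8 and 21.8 FPKM in SCM, against 13.2, 15 and 13 FPKM in PCM. Idi1, Hsd17b7 and Sc5d were not called, with log2 differences of 0.18, 0.12 and -0.05.

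Of 18 genes of sterol sensing, uptake and export, 11 rose and 1 fell (median 0.24; 9 up and 1 down with the trend removed, 8 and 1 on equal totals). Srebf2, which encodes SREBP2, was at 100.5, 102 and 97.8 FPKM in SCM, against 66.6, 70.3 and 67.0 FPKM in PCM (log2 difference 0.55, adjusted p = 4.77e-08). All SCM libraries exceeded all PCM libraries. Insig1, which holds SCAP in the endoplasmic reticulum, rose by 0.40, Scap by 0.19, the site-1 protease gene Mbtps1 by 0.23, the HDL receptor gene Scarb1 by 0.58, the lysosomal sterol carrier Npc2 by 0.41 and the sterol carrier Stard4 by 0.32. Npc1, the lysosomal partner of Npc2, fell by 0.12, at 14.2, 14.5 and 14.3 FPKM in SCM, against 14.9, 16.9 and 15.3 FPKM in PCM. The sterol exporters Abca1 and Abcg1, targets of the liver X receptors, were not called, with log2 differences of 0.00 and -0.09.

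In the synthesis list the median was 0.52 with shNdufa5_1 and 0.47 in shControl. The difference between the responses was called positive for 3 genes and negative for 1, against 10.7% and 15.5% of all genes. On equal totals the counts were 18 and 0, against 63% and 0.767% of all genes. Cyp51 rose by 0.44 more than in shControl (SE 0.08, adjusted p = 0.00129) and Hsd17b7, which fell in shControl and was not called with shNdufa5_1, differed by 0.47, while Ebp rose less (-0.48, adjusted p = 0.0165), which turned round to 0.01 on equal totals. In the sensing and uptake list the median was 0.24 with shNdufa5_1 and 0.47 in shControl. The difference was called positive for 1 gene and negative for 8 of the 18. On equal totals it was positive for 10 and negative for 0, where 63% of all genes were positive. Insig1 rose by 0.40 with shNdufa5_1 and 0.85 in shControl (difference -0.44, adjusted p = 0.000116). Npc1 fell with shNdufa5_1 and rose by 0.28 in shControl (difference -0.40, adjusted p = 7.79e-05). On equal totals the differences of Insig1 and Npc1 turned round to 0.10 and 0.14, neither of them called. The SCM minus PCM differences of the libraries labelled shNdufa5_2 had a median of 0.13 over the synthesis list, and that of Mvd was 0.40 (difference of shNdufa5_1 from it 0.89, adjusted p = 2.34e-05).

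**Figure D3:**
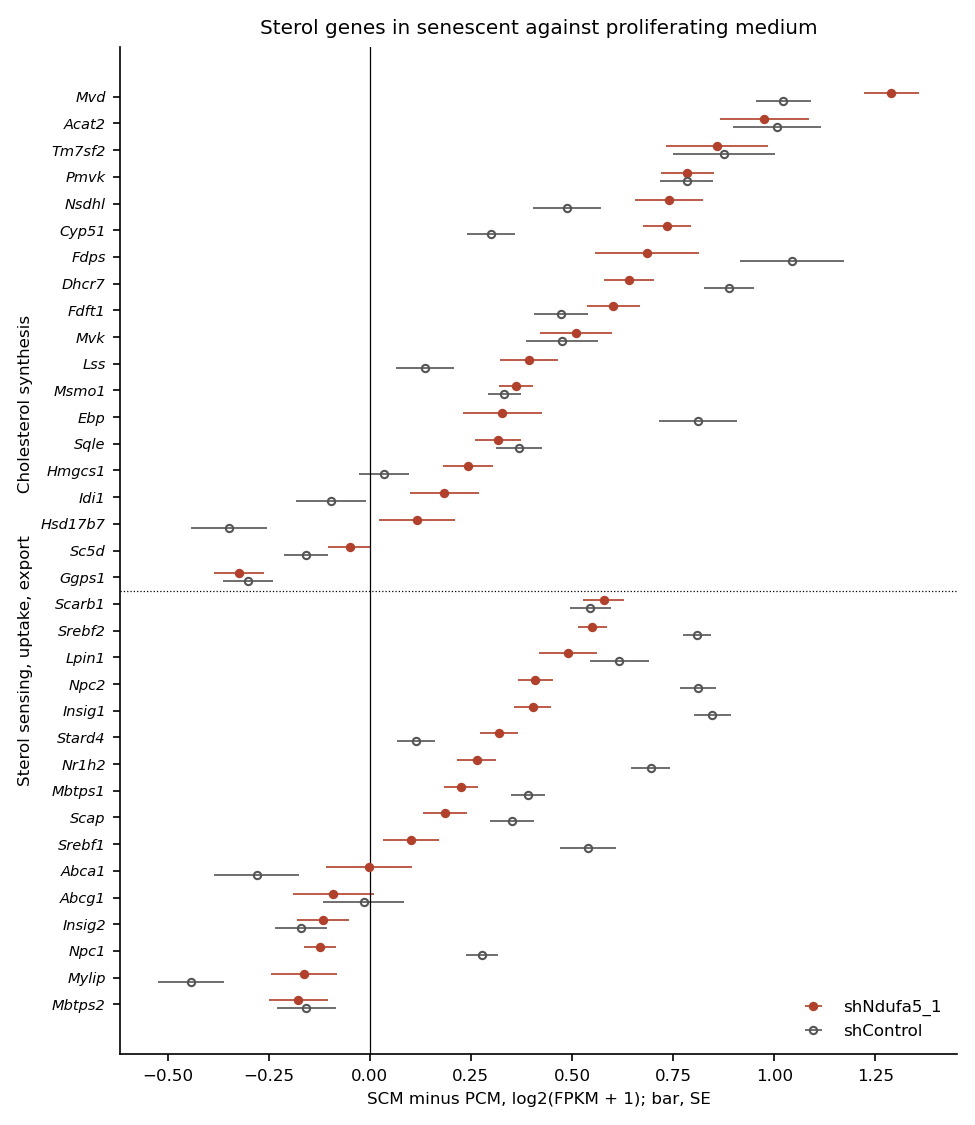
Log2(FPKM + 1) difference between SCM and PCM for tested genes of cholesterol synthesis (upper part) and of sterol sensing, uptake and export (lower part), with shNdufa5_1 as filled and shControl as open points and bars of 1 SE. Mvd is at 1.29 and 1.02, Cyp51 at 0.73 and 0.30, and Insig1 and Npc1 lie to the left of their shControl points.

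Fatty acid synthesis rose in 10 of 15 genes, with none falling (median 0.25; 10 up and 1 down with the trend removed, 7 and 0 on equal totals). Acss2, which makes acetyl-CoA from acetate, was at 3.40, 3.30 and 3.06 FPKM in SCM, against 1.78, 1.50 and 1.76 FPKM in PCM, without overlap, and rose by 0.67, 0.49 more than in shControl (adjusted p = 0.0104). Slc25a1, the mitochondrial citrate carrier, rose by 0.59, Acly, which splits citrate in the cytosol, by 0.31, and Fasn, the fatty acid synthase, by 0.45, at 62.2, 61.8 and 60.1 FPKM in SCM, against 43.9, 44.6 and 45.6 FPKM in PCM. The desaturases Fads2, Fads1, Scd2 and Scd1 rose by 0.44, 0.38, 0.32 and 0.19. Glycolysis rose in 15 of 23 genes with none falling (median 0.22; 13 up and 2 down with the trend removed, 8 and 0 on equal totals), led by Aldoc, Pfkm (0.64) and Gpi1 (0.48). The tricarboxylic acid cycle was divided, with 10 of 21 genes up, such as Idh1 (0.44), and 3 down, such as Dld, the lipoamide dehydrogenase shared by mitochondrial complexes (-0.47, SE 0.04), and the counts were 9 up and 1 down with the trend removed, 2 and 2 on equal totals.

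Matrix genes rose as a broad class. Among collagens 10 of 13 rose and none fell (median 0.32; 7 up and 1 down with the trend removed, 7 and 0 on equal totals). After Col6a1 came Col6a2 (0.64) and Col8a1 (0.59). Laminins and other basement membrane genes rose in 7 of 8 (6 up and 0 down with the trend removed, 6 and 0 on equal totals), with Lamc1, Lama5 and the proteoglycan gene Agrn at 0.37, 0.37 and 0.39. Of 21 other matrix glycoproteins and proteoglycans (15 up and 1 down with the trend removed, 12 and 1 on equal totals), 17 rose and 1, the latent TGF-beta binding protein gene Ltbp1, fell (-0.16). Ecm1 was at 71.1, 74.3 and 68.6 FPKM in SCM, against 37.1, 42.6 and 37.9 FPKM in PCM (log2 difference 0.85, SE 0.05, adjusted p = 3.06e-08), and Igfbp4, which binds insulin-like growth factors, at 297, 294 and 282 FPKM in SCM, against 197, 209 and 198 FPKM in PCM. Both genes separated the media, and Igfbp4 rose by 0.53, against 1.04 in shControl (difference -0.51, adjusted p = 7.9e-06, turning round to 0.04 on equal totals).

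Enzymes that crosslink and remodel the matrix rose in 13 of 17 and fell in 2 (9 up and 2 down with the trend removed, 9 and 2 on equal totals). Timp1, an inhibitor of metalloproteinases, was at 119, 119 and 124 FPKM in SCM, against 71.3, 62.3 and 75.9 FPKM in PCM, and rose by 0.78, against 0.34 in shControl (difference 0.45, adjusted p = 0.00163). The collagen hydroxylases Plod1, P4ha2 and P4ha1 rose by 0.61, 0.51 and 0.50. Adamts1, a protease of proteoglycans, fell by 0.37, at 34.1, 32.3 and 34.0 FPKM in SCM, against 43.2, 43.0 and 44.7 FPKM in PCM, while in shControl it rose by 0.18 (difference -0.56, adjusted p = 3.27e-06). Both TGF-beta ligand genes named by the rule rose, Tgfb1 by 0.70 and Tgfb3 by 0.57. Yet over the 20 genes of the TGF-beta list 7 rose (35%) and 4 fell (20%), against 22.5% and 19.8% of all genes. The counts were 5 up and 3 down with the trend removed, 3 and 4 on equal totals. Among the falls were the receptor gene Tgfbr1 (-0.33) and the inhibitor gene Smad7 (-0.32).

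Integrins rose in 6 of 11 and fell in 2 (6 up and 1 down with the trend removed, 5 and 1 on equal totals). Itgb3, of the vitronectin receptor, was at 4.06, 3.26 and 4.16 FPKM in SCM, against 1.57, 1.88 and 2.00 FPKM in PCM (0.77, SE 0.13), and Itga7 and Itgb4, of laminin receptors, rose by 0.61 and 0.53. Itgb7, which pairs with the alpha-4 chain in the homing of lymphocytes, fell (-0.21). Keratins and epithelial genes rose in 6 of 11 with none falling (2 up and 1 down with the trend removed, 4 and 0 on equal totals), and Wfdc2, the serum marker HE4 of ovarian cancer, was at 272, 281 and 274 FPKM in SCM, against 173, 157 and 178 FPKM in PCM (0.70, SE 0.05, adjusted p = 7.15e-08). With quantile normalization 2 of these 11 rose and 1 fell. Of 11 mesenchymal genes and epithelial-to-mesenchymal factors 5 rose, among them Vim (0.34), and 2 fell, Snai2 (-0.57) and Zeb2 (-0.46), with 4 up and 1 down with the trend removed, 4 and 2 on equal totals. Snai1, a repressor of E-cadherin, was at 3.49, 3.64 and 3.71 FPKM in SCM, against 1.93, 0.704 and 2.48 FPKM in PCM (0.83, SE 0.24, adjusted p = 0.0109), with PCM replicate 2 far below the other libraries. Without that library the log2 difference of Snai1 was 0.53 and was not called.

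The secreted defence genes rose in 5 of 8 with none falling (median 0.46; 3 up and 0 down with the trend removed, 5 and 0 on equal totals). After Lcn2 came Slpi, an inhibitor of neutrophil elastase, at 43.6, 45.0 and 41.1 FPKM in SCM, against 21.8, 23.4 and 19.3 FPKM in PCM, without overlap (log2 difference 0.98, SE 0.09, adjusted p = 7.31e-07). The complement gene C3 was low, at 1.03, 0.792 and 1.02 FPKM in SCM, against 0.241, 0.592 and 0.356 FPKM in PCM (0.49). Chemokines and cytokines rose in 12 of 20 and fell in 2 (median 0.33; 9 up and 3 down with the trend removed, 9 and 1 on equal totals). Besides Il33 and Ccl7, Cxcl2, which draws neutrophils, was at 7.56, 7.90 and 6.44 FPKM in SCM, against 4.28, 3.04 and 3.92 FPKM in PCM (0.81, SE 0.15), and Tslp, an epithelial cytokine of type 2 immunity, at 7.23, 6.30 and 8.15 FPKM in SCM, against 3.64, 2.85 and 4.79 FPKM in PCM (0.80, SE 0.18). The media were separate in both. Csf1, the macrophage growth factor, fell by 0.12.

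Slpi and Lcn2 rose less than in shControl on the deposited scale. In shControl Slpi was at 65.6, 63.3 and 66.6 FPKM in SCM, against 10.4, 11.4 and 11.6 FPKM in PCM, a log2 difference of 2.45, and the response of shNdufa5_1 cells was -1.47 relative to that (SE 0.12, adjusted p = 6.65e-07). Lcn2 in shControl was at 42.9, 40.1 and 41.6 FPKM in SCM, against 5.45, 5.83 and 5.35 FPKM in PCM, and the difference between the responses was -0.83 (SE 0.12, adjusted p = 9.3e-05). The lower Lcn2 levels of shNdufa5_1 in PCM make its rise come out smaller on log2(FPKM + 1), so the size of this difference depends on that scale. Over the 8 secreted defence genes the difference was called negative for 4 and positive for 0. On equal totals the counts were 2 and 0, where 0.767% of all genes were negative and 63% positive. Il33 and Ccl7 differed from shControl by 0.08 (95% interval -0.22 to 0.39) and 0.29 (-0.37 to 0.96), which did not pass the test. Among regulators of NF-kB, Bcl3, a nuclear cofactor of the p50 and p52 subunits, was at 12.2, 13.9 and 12.3 FPKM in SCM, against 6.48, 6.12 and 6.33 FPKM in PCM (0.91, SE 0.07), while the feedback gene Tnfaip3 fell (-0.30), and over the 19 genes of that list 8 rose and 4 fell (median -0.01; 5 up and 7 down with the trend removed, 2 and 4 on equal totals).

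Interferon genes moved in both directions. Of 25 interferon-stimulated effectors, 9 rose and 3 fell (median 0.25; 5 up and 1 down with the trend removed, 7 and 3 on equal totals), and in shControl 20 rose and 2 fell (median 0.78; background 31.7% up and 30.2% down). The difference between the responses was called negative for 14 and positive for 1. On equal totals, where 63% of all genes were positive and 0.767% negative, it was called for 6 effectors each way. Of the 20 with a promoter in the RefSeq table, 8 held the core of the interferon-stimulated response element, GAAA followed after any 2 bases by a second GAAA, on either strand, against 3.29% of the 8124 tested genes with a promoter. Windows of 100 bases follow for the 2 with the largest rise among effectors with a match and for Ifit1, the one that fell most, with the element in capitals. The effector that rose most had a promoter in the table without a match. Ifitm2 lies at chr7:140955953-140956052 (minus strand), Bst2 at chr8:71537545-71537644 (minus) and Ifit1 at chr19:34640749-34640848 (plus).
Ifitm2: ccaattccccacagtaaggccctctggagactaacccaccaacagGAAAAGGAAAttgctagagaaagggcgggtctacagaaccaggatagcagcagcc
Bst2: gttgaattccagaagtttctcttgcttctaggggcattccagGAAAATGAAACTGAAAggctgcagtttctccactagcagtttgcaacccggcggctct
Ifit1: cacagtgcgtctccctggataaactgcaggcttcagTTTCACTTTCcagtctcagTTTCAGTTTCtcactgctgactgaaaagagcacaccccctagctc
In Bst2 a pair of matches overlap, and in Ifit1 both matches are on the other strand. The 3 windows thus share the element while their genes moved in both directions.

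Bst2, tetherin, which holds budding virus at the cell surface, was at 56.4, 68.4 and 54.9 FPKM in SCM, against 43.6, 44.1 and 41.5 FPKM in PCM, and Ifitm2, which blocks viral entry, at 148, 159 and 142 FPKM in SCM, against 107, 104 and 107 FPKM in PCM. All SCM libraries were above all PCM libraries, and the log2 differences were 0.46 and 0.50. In shControl Bst2 rose by 1.47 (difference -1.01, adjusted p = 1.17e-06). Ifit1, which binds viral RNA that lacks cap methylation, was at 1.11, 0.920 and 0.792 FPKM in SCM, against 2.11, 2.36 and 2.09 FPKM in PCM, and was the lower in SCM in every library (log2 difference -0.72, SE 0.10, adjusted p = 4.7e-05). In shControl it was at 1.32, 1.93 and 1.72 FPKM in SCM, against 1.02, 0.975 and 0.938 FPKM in PCM, the opposite direction (difference -1.14, SE 0.14, adjusted p = 2.8e-05), and these levels rest on 36 to 99 fragments per library of shNdufa5_1. Eif2ak2, the kinase PKR, and Ifit2 fell by 0.45 and 0.31.

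MHC class I and antigen processing genes rose in 11 of 17 and fell in 1 (median 0.37; 9 up and 1 down with the trend removed, 10 and 1 on equal totals), against a median of 0.70 in shControl. The difference between the responses was called negative for 9 of the 17 and positive for 1, against 15.5% and 10.7% of all genes. On equal totals it was negative for 0 and positive for 7, where 63% of all genes were positive. The nonclassical genes H2-T23 and H2-T22 were at 11.9, 13.2 and 11 FPKM in SCM, against 6.84, 8.67 and 6.58 FPKM in PCM and at 12.1, 12.5 and 12.2 FPKM in SCM, against 7.22, 7.69 and 7.80 FPKM in PCM, without overlap, and their log2 differences were 0.65 and 0.63. The immunoproteasome gene Psmb8 rose by 0.55 and the proteasome activator gene Psme2, whose libraries overlapped, by 0.76, and H2-T24 fell by 0.42. Genes of this family are close copies of each other, so counts may have been split among them. Of 21 interferon regulatory factors and STATs, 7 rose, such as Irf8 (0.51), and none fell (5 up and 0 down with the trend removed, 4 and 0 on equal totals).

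Several cytokine and immediate early genes rose with shNdufa5_1 and fell in shControl. Csf2, the cytokine GM-CSF (ENSMUSG00000018916, chromosome 11, 54247271 to 54249667 on the minus strand), was at 20.8, 17.7 and 19.9 FPKM in SCM, against 14.2, 9.67 and 16.9 FPKM in PCM. The SCM libraries lay above the PCM libraries, whose replicate 2 was the lowest (log2 difference 0.52, SE 0.13, adjusted p = 0.00539). In shControl Csf2 was at 10.5, 11.4 and 10.8 FPKM in SCM, against 27.7, 26.8 and 25.6 FPKM in PCM, a log2 difference of -1.22, so the responses differed by 1.74 (SE 0.19, adjusted p = 6.86e-06). Egr1, a zinc finger factor and immediate early gene of chromosome 18, was at 44.5, 45.2 and 43.0 FPKM in SCM, against 35.5, 34.8 and 35.4 FPKM in PCM with shNdufa5_1 and at 19.9, 21.7 and 20.6 FPKM in SCM, against 43.9, 41.8 and 42.7 FPKM in PCM in shControl. The log2 differences were 0.32 and -1.01, and the responses differed by 1.33 (SE 0.05, adjusted p = 1.5e-09).

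The related factor gene Egr3 rose by 0.30, against -0.56 in shControl (difference 0.86), the cytokine gene Lif by 0.53, against -0.30 (difference 0.82), and Kctd11, an adaptor of the ubiquitin ligase cullin 3, by 0.29, against -0.99 (difference 1.27). Each of these rose with shNdufa5_1 and fell in shControl on the deposited scale. Dusp2, a phosphatase of MAP kinases, rose by 0.30 and fell in shControl (-0.51, difference 0.81, adjusted p = 0.000454). Mblac1 and the tubulin gene Tubb2b rose by 0.71 and 0.51 and were not called in shControl (-0.21 and -0.25). On equal totals the rises of Csf2 (0.47), Egr3 (0.27), Kctd11 (0.24), Dusp2 (0.25) and Tubb2b (0.47) were not called, and with the trend removed those of Egr3 (0.21), Kctd11 (0.12), Dusp2 (0.09) and Tubb2b (0.38) were not. In the libraries labelled shNdufa5_2 the SCM minus PCM difference was -0.93 for Csf2 and -0.50 for Egr1, and the response of shNdufa5_1 cells exceeded it by 1.45 (adjusted p = 9.29e-05) and 0.82 (adjusted p = 8.87e-07).

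Over the 33 immediate early factors tested, 6 rose and 10 fell with shNdufa5_1 (median -0.07; 2 up and 13 down with the trend removed, 2 and 9 on equal totals), and 6 rose and 20 fell in shControl (median -0.39). The difference between the responses was called positive for 13 and negative for 2 (28 and 0 on equal totals, where 63% of all genes were positive). Nr4a1, an orphan nuclear receptor, rose (0.32), and Klf6, Atf3, Klf5 and Myc fell by 0.61, 0.48, 0.36 and 0.35. Myc was at 70.8, 69.7 and 64.1 FPKM in SCM, against 89.9, 88.9 and 83.7 FPKM in PCM, without overlap, and fell more in shControl (-0.85, difference 0.49, adjusted p = 0.000128). The EGF receptor ligand gene Hbegf and the receptor inhibitor gene Errfi1 fell by 0.11 and 0.19, against -0.73 and -1.11 in shControl, differences of 0.61 and 0.92. Of 25 MAPK feedback and output genes 8 rose (32%) and 7 fell (28%), against 22.5% and 19.8% of all genes (4 up and 10 down with the trend removed, 4 and 6 on equal totals), with Hmga2, an architectural chromatin protein, at 42.1, 46.3 and 45.1 FPKM in SCM, against 65.7, 65.6 and 67.1 FPKM in PCM (-0.56, SE 0.04, adjusted p = 1.41e-07).

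**Figure D4:**
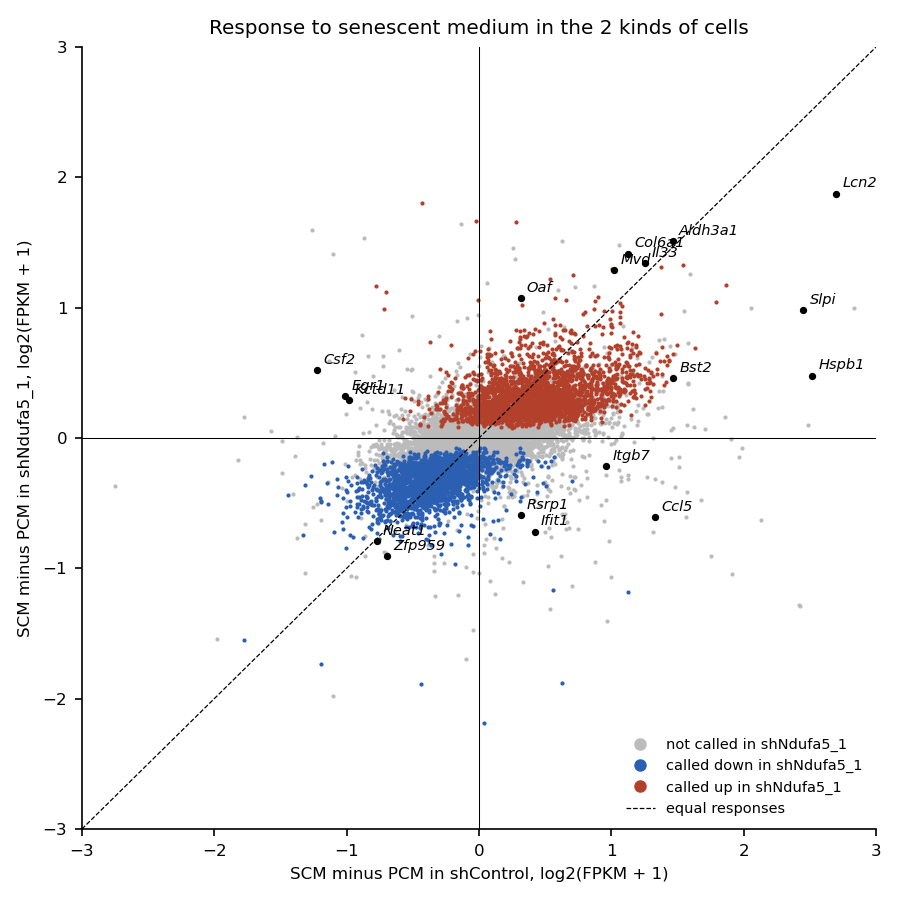
Log2(FPKM + 1) difference between SCM and PCM of each tested gene with shNdufa5_1 (vertical) against that with shControl (horizontal), with genes coloured by their call in shNdufa5_1 and the dashed line marking equal responses. Csf2, Egr1 and Kctd11 lie above 0 on the vertical and below 0 on the horizontal axis, Ccl5, Itgb7, Ifit1 and Rsrp1 lie the other way, and Lcn2, Slpi and Hspb1 lie far below the line.

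In the other direction, Ccl5, a chemokine that draws T cells, was at 1.84, 1.40 and 1.28 FPKM in SCM, against 2.58, 3.30 and 2.54 FPKM in PCM with shNdufa5_1 and at 13.5, 14.8 and 14.3 FPKM in SCM, against 4.64, 6.34 and 4.29 FPKM in PCM in shControl. It was lower in SCM in every shNdufa5_1 library and higher in SCM in every shControl library. The log2 differences were -0.60 (adjusted p = 0.00927) and 1.33 (adjusted p = 5.6e-06), and the responses differed by -1.94 (SE 0.24, adjusted p = 2.46e-05), with 21 to 50 fragments behind each shNdufa5_1 value. Itgb7 was at 7.09, 7.40 and 7.85 FPKM in SCM, against 8.41, 9 and 8.96 FPKM in PCM with shNdufa5_1 and rose by 0.96 in shControl (difference -1.18, adjusted p = 1.06e-07). Rsrp1, an arginine- and serine-rich nuclear protein, Commd1, a partner of ubiquitin ligases, and Kif20b, a kinesin of cell division, fell by 0.59, 0.42 and 0.45 and rose in shControl by 0.32, 0.44 and 0.32. Hist1h2bg differed from shControl by -0.93 (adjusted p = 0.0472).

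Over all genes, the response differed between shNdufa5_1 and shControl for 2900 of 11084 (26.2%), positively for 1186 (10.7%) and negatively for 1714 (15.5%). Among genes that rose with shNdufa5_1, the difference was negative for 781, positive for 238 and not called for 1474. Among genes that fell, it was positive for 309, negative for 216 and not called for 1669. A further 1356 genes not called with shNdufa5_1 had a called difference. On equal totals the difference was called for 7073 genes. There the differences of Adamts1 (-0.01), Snhg1 (-0.07), Aqp8 (-0.16), Mgp (-0.26), Kif20b (-0.31) and Hist1h2bg (-0.66) were no longer called, and those of Esf1 and Fnip1 turned round to 0.12 and 0.10.

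Ribosomal protein genes rose almost without exception. Of 78 tested, 74 rose and none fell (67 up and 0 down with the trend removed, 64 and 0 on equal totals). The median log2 difference was 0.40, against 1.00 in shControl. The difference between the responses was called negative for 70 and positive for 0, against 15.5% and 10.7% of all genes. On equal totals it was negative for 6 and positive for 4, against 0.767% and 63% of all genes. Genes of this list took 6.05%, 5.90% and 5.91% of fragments in SCM and 4.84%, 4.51% and 4.70% in PCM with shNdufa5_1. With shControl they took 9.10%, 9.55% and 9.10% in SCM and 5.34%, 5.59% and 5.57% in PCM. With quantile normalization 50 rose and none fell. Rpl41 was at 663, 627 and 552 FPKM in SCM, against 419, 378 and 345 FPKM in PCM and Rpl38 at 206, 164 and 177 FPKM in SCM, against 131, 86.3 and 133 FPKM in PCM, and Rpl17 rose by 0.87 (SE 0.26), with the caveat on pseudogenes given for Rpl7a. Translation factors were divided, 15 up and 12 down of 36 (15 up and 12 down with the trend removed, 11 and 11 on equal totals). The elongation factors Eef2 and Eef1g and the initiation factor Eif4b rose by 0.47, 0.45 and 0.55, while Eif5b, Eif3a, Eif1a and Eif4g2 fell by 0.53, 0.51, 0.48 and 0.47. Eif3a was at 93.0, 92.6 and 94.3 FPKM in SCM, against 136, 134 and 129.8 FPKM in PCM, with a wide gap between the media.

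Respiratory chain genes rose modestly on the deposited scale. Of 35 complex I subunits other than Ndufa5, 19 rose and 1, Ndufs1, fell (median 0.21) (9 up and 0 down with the trend removed, 7 and 1 on equal totals). In shControl the median was 0.62. The difference was called negative for 23 of the 35 and positive for 0, against 15.5% and 10.7% of all genes. On equal totals it was negative for 1 and positive for 6, against 0.767% and 63% of all genes. Ndufs8, which holds iron-sulfur clusters, was at 93.0, 101 and 94.1 FPKM in SCM, against 76.1, 65.1 and 77.4 FPKM in PCM (0.40, against 0.94 in shControl, adjusted p of the difference = 7.04e-05, turning round to 0.01 on equal totals). Complexes II to V rose in 23 of 39 and fell in 1 (median 0.18, against 0.54 in shControl; 12 up and 1 down with the trend removed, 7 and 2 on equal totals, and 9 up and 3 down with quantile normalization), led by Atp5a1 of the ATP synthase at 267, 255 and 268 FPKM in SCM, against 199.8, 195 and 194 FPKM in PCM (0.42). The fall was in Cycs, cytochrome c (-0.21). The mRNAs made in mitochondria did not follow: of 12 tested 1 rose and 5 fell (median -0.09), with mt-Cytb at 1043, 1044 and 1083 FPKM in SCM, against 1319, 1202 and 1309 FPKM in PCM (-0.27). They made up 1.42%, 1.43% and 1.49% of fragments in SCM and 1.51%, 1.38% and 1.52% in PCM, which overlap (1 up and 0 down with the trend removed, 0 and 2 on equal totals). Of 18 mitochondrial chaperones and proteases 3 rose (16.7%) and 4 fell (22.2%), against 22.5% and 19.8% of all genes. The counts were 1 up and 5 down with the trend removed, 0 and 3 on equal totals. Among the falls were Yme1l1 (-0.48) and Hspd1 (-0.24).

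Stress response genes were mixed. Hspa8, the constitutive HSP70, was at 224, 211 and 229 FPKM in SCM, against 139.9, 134 and 141 FPKM in PCM (0.67, SE 0.03, adjusted p = 3.14e-09), and Hsp90ab1 at 1329.7, 1315 and 1329 FPKM in SCM, against 963, 978 and 944 FPKM in PCM (0.46). Both were separate between the media. The stress-induced partner Hsp90aa1 fell by 0.37. Of 30 genes of the cytosolic heat shock response 10 rose (33.3%) and 7 fell (23.3%), against 22.5% and 19.8% of all genes. The counts were 11 up and 6 down with the trend removed, 6 and 7 on equal totals. Hspb1, a small heat shock protein, was at 12, 9.76 and 15.4 FPKM in SCM, against 7.5, 9.96 and 8.10 FPKM in PCM, where the groups overlapped (log2 difference 0.48, adjusted p = 0.0487, not called with the trend removed, at 0.27, or on equal totals, at 0.43), while in shControl it was at 37.4, 35.4 and 43.1 FPKM in SCM, against 5.90, 6.04 and 5.72 FPKM in PCM (difference -2.04, SE 0.26, adjusted p = 3.73e-05). Cryab, alpha-B crystallin, rose by 0.71, against 1.50 in shControl. In the endoplasmic reticulum list 13 of 27 rose and 5 fell (12 up and 1 down with the trend removed, 6 and 4 on equal totals), with Xbp1, a factor of the unfolded protein response, at 32.5, 32.3 and 34.1 FPKM in SCM, against 23.2, 22.9 and 24.7 FPKM in PCM (0.47, against -0.11 in shControl, adjusted p of the difference = 7.53e-07). Integrated stress response genes rose in 24 of 42 and fell in 5 (14 up and 9 down with the trend removed, 14 and 5 on equal totals), the enzymes Pck2, Pycr1 and Asns by 0.61, 0.51 and 0.49 among the first, and the regulators Ppp1r15a and Ddit3 (-0.42 and -0.22) among the second.

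Antioxidant genes of the NRF2 list rose in 16 of 30 and fell in 3 (12 up and 5 down with the trend removed, 8 and 2 on equal totals), with Gstm1 up (0.54) and Gclc, of glutathione synthesis, down (-0.35). Lysosomal genes rose in 17 of 37 and fell in 4 (11 up and 7 down with the trend removed, 9 and 4 on equal totals). Lipa, the acid lipase, was at 0.52, Ctsd, cathepsin D, at 0.48, and the membrane protein gene Lamp2 at -0.41. The lysosomal median was 0.12, against 0.47 in shControl, and the difference was called negative for 23 and positive for 1. On equal totals it was negative for 0 and positive for 15, where 63% of all genes were positive. Among hypoxia genes, 8 of 18 rose and 2 fell (8 up and 1 down with the trend removed, 5 and 2 on equal totals). Egln3, an oxygen-sensing hydroxylase, was at 35.6, 34.0 and 31.1 FPKM in SCM, against 19.2, 18.7 and 19.4 FPKM in PCM (0.78, against 0.36 in shControl, adjusted p of the difference = 0.00124). Vegfa, the angiogenic factor, fell by 0.27 and Hif1a by 0.29. Autophagy genes showed 6 up (30%), such as Gabarapl1 (0.38), and 5 down (25%), such as Atg3 (-0.56), of 20. Over all genes 22.5% rose and 19.8% fell. The autophagy counts were 2 up and 3 down with the trend removed, 4 and 3 on equal totals.

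Many genes of RNA processing fell. Of 29 SR splicing factors, their kinases and Tra2 genes, 20 fell and 3 rose (median -0.25) (3 up and 13 down with the trend removed, 1 and 16 on equal totals). Srsf1 was at 27.3, 27.9 and 27.8 FPKM in SCM, against 41.7, 39.4 and 43.6 FPKM in PCM (-0.57, SE 0.04, adjusted p = 8.67e-08), and Srsf10, Tra2a and Tra2b fell by 0.58, 0.55 and 0.53. The splicing regulator Tra2b fell by 1.00 in shControl, where the difference was 0.47 (adjusted p = 0.00024). Of 32 hnRNP and snRNP genes 13 fell and 6 rose (5 up and 11 down with the trend removed, 1 and 11 on equal totals): Hnrnpm, Hnrnpu and Hnrnph1 fell by 0.61, 0.54 and 0.54, while Snrpd2 and Snrpa, of the spliceosomal snRNPs, rose by 0.36 and 0.30. Among 14 long noncoding RNAs 6 fell and 2 rose (3 up and 7 down with the trend removed, 0 and 7 on equal totals), and Snhg1, a snoRNA host gene, was at 19.8, 20.8 and 20.2 FPKM in SCM, against 33.1, 32.1 and 33.0 FPKM in PCM, without overlap (-0.67, against -0.06 in shControl, adjusted p of the difference = 8.71e-05).

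Chromatin modifiers fell in 19 of 34 and rose in 1 (median -0.19; 2 up and 15 down with the trend removed, 0 and 18 on equal totals). Suz12, of Polycomb complex PRC2, was at 17.9, 17.5 and 17.0 FPKM in SCM, against 28.2, 28.4 and 29.1 FPKM in PCM, a clear gap (log2 difference -0.68, SE 0.06, adjusted p = 4.44e-07). Setd2, the methyltransferase of lysine 36 of histone H3, the deacetylase gene Sirt1 and the remodeller gene Chd1 fell by 0.49, 0.48 and 0.44. Zinc finger genes with a Zfp name fell in 68 of 212 and rose in 10 (median -0.13; 4 up and 37 down with the trend removed, 4 and 63 on equal totals). With the trend removed 17.5% of them fell, against 14.2% of all genes. In the libraries labelled shNdufa5_2, the median was 0.11 over the chromatin modifiers and 0.03 over the SR genes, and for Suz12 the response of shNdufa5_1 cells differed from theirs by -0.87 (adjusted p = 7.79e-06).

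**Figure D5:**
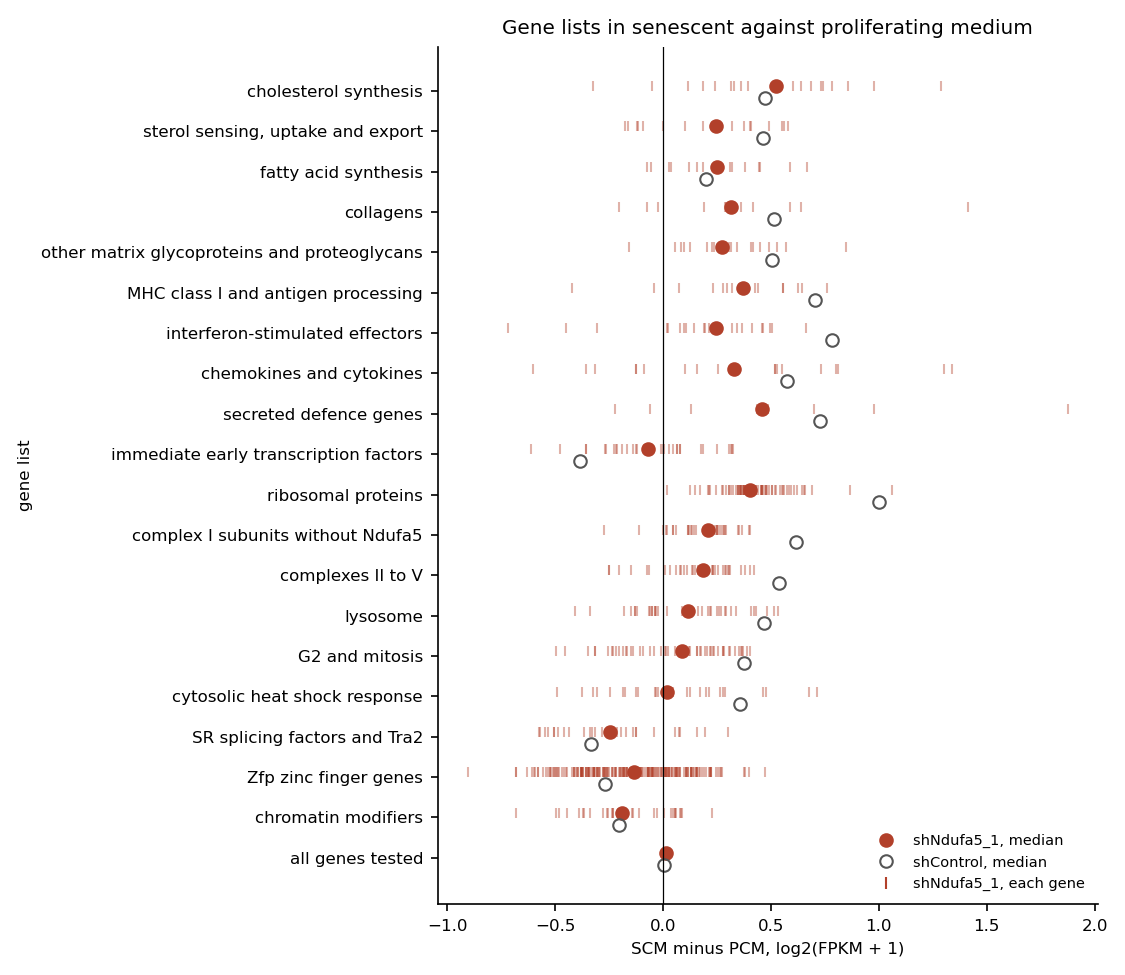
Log2(FPKM + 1) differences between SCM and PCM over 19 gene lists and over all genes tested, with each gene of shNdufa5_1 as a tick, the shNdufa5_1 median as a filled point and the shControl median as an open point. The shNdufa5_1 medians run from -0.25 for SR factors to 0.52 for cholesterol synthesis, and the open points of ribosomal proteins, complex I and interferon-stimulated effectors lie to the right of the filled ones.

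Cell cycle genes were divided. Of 52 genes of G2 and mitosis, 23 rose and 13 fell (median 0.09, against 0.37 in shControl). The difference from shControl was called negative for 26 and positive for 1. On equal totals it was negative for 1 and positive for 21, where 63% of all genes were positive. The response itself gave 21 up and 2 down with the trend removed, 10 and 7 on equal totals. Cdc20, the activator of the anaphase-promoting complex, was at 75.7, 78.1 and 77.0 FPKM in SCM, against 56.4, 61.8 and 55.9 FPKM in PCM (0.40, SE 0.04), and Ccnf and Kif2c rose by 0.39 and 0.36. The kinetochore genes Ndc80, Cenpe and Bub1 fell by 0.49, 0.35 and 0.31. Of 49 genes of origin licensing and S phase 8 rose (16.3%) and 13 fell (26.5%), against 22.5% and 19.8% of all genes (4 up and 4 down with the trend removed, 4 and 11 on equal totals), the origin recognition gene Orc2 by 0.46. Among 25 p53 targets and arrest genes, the cyclin-dependent kinase inhibitors Cdkn1a, at 39.9, 38.9 and 39.9 FPKM in SCM, against 34.0, 32.9 and 33.1 FPKM in PCM, and Cdkn2a, at 267, 269 and 247 FPKM in SCM, against 214, 217 and 208 FPKM in PCM, rose by 0.24 and 0.29. Both separated the media, while Mdm2, the p53 ligase and target, fell by 0.29, and 5 genes of the list rose and 5 fell, 20% each way, against 22.5% and 19.8% of all genes (1 up and 4 down with the trend removed, 3 and 4 on equal totals).

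Against the libraries labelled shNdufa5_2, the response of shNdufa5_1 cells differed for 2326 genes (21%), or 974 on equal totals and 1299 with the trend removed. The target gene in those libraries was at 14.6, 16.1 and 20.2 FPKM in SCM and at 18.7, 17.2 and 16.8 FPKM in PCM, within the range of the shControl libraries in PCM for the PCM libraries, so the comparison cannot be read as one between knockdowns of equal strength. There 2532 genes (22.8%) were called between SCM and PCM. Lcn2, Col6a1, Mgp and Slpi rose by 1.88, 1.42, 1.04 and 0.98 with shNdufa5_1, against 2.22, 1.22, 1.03 and 1.05 there. Neat1 fell by 0.79 with shNdufa5_1, against 0.27 there, and the difference was -0.52 (adjusted p = 0.000249). Clock had a log2 difference of -0.01 there, and the response of shNdufa5_1 cells differed from it by -0.75 (adjusted p = 2.27e-05).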

How the data were processed

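Poly(A) RNA of 18 libraries, 6 of them from shNdufa5_1 cells, was sequenced from NEBNext Ultra II libraries, per the labels' protocols. The authors deposited 1 FPKM value per gene and library. Per the submitters' processing notes the tools were STAR 2.6.1 and DESeq2 and the builds GRCm38 and mm10. The counter, the gene lengths and the use of strand were not given in the sources used here. Reads of antisense, overlapping and near-identical genes (ribosomal proteins, MHC and zinc finger genes) may therefore be split or shared.

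Genes with a mean of at least 1 FPKM over the 18 libraries were tested as log2(FPKM + 1) with limma 3.58.1 (variance trend) in R 4.3.3, all 18 libraries in 1 fit with a mean per group, and p-values were adjusted over all 11084 genes by Benjamini-Hochberg. The threshold for a call was an adjusted p under 0.05. Differences between responses were interaction terms. On simulated data all groups shared 1 mean per gene, with normal noise of the observed spread, and 200 of 11084 genes were changed in shNdufa5_1 SCM. Of genes changed by 0.5 on the log2 scale, 71.5% were recovered in the shNdufa5_1 comparison, and 96.5% of those changed by 1. For the difference from shControl 52% and 90.5% were recovered, with 13 and 11 false calls. In the real comparison 42.3% of genes were called, and the adjustment depends on that share. The rates therefore describe the simulated setting only. Depth came from the steps of low values, which were whole fragments, within 0.1 of a fragment, for over 99.5% of values up to 20 fragments of genes with 1 transcript.

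The members and lists were chosen with earlier results of these data known. Named genes were the 15 with the largest rise and the 15 with the largest fall among called genes whose libraries did not overlap, the 8 in each direction whose response most exceeded that of shControl, the 5 in each direction called the opposite way there, and up to 4 called members in each direction of each list, with the tested genes of the sterol lists. Some genes that this rule takes are counted in their lists but not reported here. Hbegf and Errfi1 belong to such lists. No pairing by replicate number was detected: same-numbered deviations in SCM and PCM correlated at -0.023, 0.007 and 0.037. With 3 libraries per group these values cannot exclude a pairing. Alternatives were other pseudocounts, filters and scalings, removal of the GC and length trend, fits on the compared groups alone, robust variances, a replicate block and leaving out each library. Promoters came from RefSeq (GRCm38.p6), and GC content and exon length from GENCODE M21.

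In bulk RNA, fewer cells of a type and less RNA per cell cannot be told apart.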

Additional observations from a re-analysis of the deposited data

Results flagged for a closer look

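The response to SCM differed between shNdufa5_1 and shControl cells for 45 of the genes whose difference is given or implied in the results. The test was limma's, of the difference itself, with Benjamini-Hochberg adjustment. Some of these genes were named because this difference was called, so their number follows in part from that choice. Over all genes tested 26.2% were called. The values are log2(FPKM + 1) differences, the response of shNdufa5_1 cells minus that of shControl cells, with 3 libraries in each of the 4 groups.

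The difference was positive for 23 genes, Csf2 (1.74), Egr1 (1.33), Kctd11 (1.27), Mblac1 (0.92), Errfi1 (0.92), Egr3 (0.86), Lif (0.82), Dusp2 (0.81), Tubb2b (0.76), Oaf (0.76), Hbegf (0.61), Xbp1 (0.57), Ndrg2 (0.54), Ngfr (0.51), Myc (0.49), Acss2 (0.49), Tra2b (0.47), Hsd17b7 (0.47), Timp1 (0.45), Cyp51 (0.44), Egln3 (0.42), Wsb1 (0.37) and Col6a1 (0.29).

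It was negative for 22 genes, Hspb1 (-2.04), Ccl5 (-1.94), Slpi (-1.47), Itgb7 (-1.18), Ifit1 (-1.14), Bst2 (-1.01), Hist1h2bg (-0.93), Rsrp1 (-0.91), Commd1 (-0.85), Lcn2 (-0.83), Kif20b (-0.77), Mgp (-0.75), Aqp8 (-0.69), Snhg1 (-0.61), Adamts1 (-0.56), Ndufs8 (-0.54), Igfbp4 (-0.51), Ebp (-0.48), Insig1 (-0.44), Npc1 (-0.40), Fnip1 (-0.39) and Esf1 (-0.37). The depth was low for Ccl5, Ifit1 and Hist1h2bg, and the scale of the libraries bears on these differences as given below.

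Against the libraries labelled shNdufa5_2, the response of shNdufa5_1 cells was higher for Csf2 (1.45), Mvd (0.89) and Egr1 (0.82) on the deposited scale. It was lower for Suz12 (-0.87), Clock (-0.75) and Neat1 (-0.52). Values of these differences on equal totals or with the trend removed are not given here. Over all genes such called differences numbered 2326, against 974 on equal totals and 1299 with the trend removed.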

How the results depend on the processing

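Leaving out each library in turn gave 2043 to 2505 genes called up and 1829 to 2225 called down between SCM and PCM with shNdufa5_1, 2430 to 2885 called differences from shControl and 1791 to 2413 from the libraries labelled shNdufa5_2. With the replicate block the counts were 2465 up, 2152 down, 2811 and 2273, and of the genes named 1 difference from shControl lost its call. Rescaling to equal totals moved the count up to 1212, the differences from shControl to 7073 and those from shNdufa5_2 to 974, and removing the GC and length trend moved the last to 1299. The other counts stayed within 1.5 times.

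On equal totals the differences from shControl turned round for Ebp (0.014), Esf1 (0.12), Fnip1 (0.10), Igfbp4 (0.045), Insig1 (0.10), Ndufs8 (0.0072) and Npc1 (0.14), and, among list medians larger than their spread between libraries, those of TGF-beta genes (-0.0012), EGF family genes (-0.020), MAPK genes (-0.0021), heat shock genes (-0.029) and the proteasome (-0.0047). Quantile normalization turned round the MAPK (-0.050), heat shock (-0.020) and proteasome (-0.058) medians. Removing the trend turned round the EGF (-0.062), MAPK (-0.086), proteasome (-0.011) and mitochondrial mRNA (0.091) medians and Npc1 (0.024). A mean of at least 5 FPKM turned round origin licensing (0.010). Medians within that spread changed sign under 1 or more settings for the NF-kB, YAP, autophagy, p53 and translation factor lists, with the NF-kB median at 0.080 and the YAP median at -0.032 for a mean of at least 5 FPKM, and are not read as directions. Leaving out shNdufa5_1_PCM replicate 2, the shallowest of the 6 libraries, moved 21 of 50 list medians by more than their spread and turned round none beyond it. Over the leave-one-out fits the MAPK median ran from -0.019 (without shNdufa5_1_PCM replicate 1) to 0.079, and that of mitochondrial chaperones from -0.034 to 0.010 (without shNdufa5_1_SCM replicate 2). The Il33 difference from shControl was -0.026 with a pseudocount of 0.1 and -0.011 to 0.19 over the leave-one-out fits. The cause was not tested.

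Of the 195 named responses, 26 lost their call with the trend removed and 16 on equal totals, named in the results, and 5 or fewer under each other setting that keeps all libraries: Scd1, Scd2, Krt18, Vim and Cdkn2a with quantile normalization, Sarnp, Rtl10, Dusp2, Hspb1 and Rpl17 with no filter, Hist1h2bg and Rtl10 with a pseudocount of 0.1, Ccl5 and Hspb1 with 5, Csf2, Npc1, Psme2 and Hspb1 with the groups alone, and Hspb1 with robust variances. With a mean of at least 5 FPKM 26 were not tested. Without shNdufa5_1_PCM replicate 2 the calls of Hist1h2bg (-0.60), Rtl10 (-0.58), Tubb2b (0.41), Ebp (0.26), Npc1 (-0.07), Snai1 (0.53), Hbegf (-0.09) and Rpl17 (0.79) ended. Leaving out another of the 6 libraries ended those of Csf1, Dusp2, Hbegf, Hist1h2bg, Hspb1, Npc1, Rpl17, Rtl10, Sarnp, Scap, Tgfbr1 or Tubb2b, and that of Hspb1 also ended without any 1 of 9 libraries of the other cells. Of the differences from shControl, those of Col6a1, Hist1h2bg, Ngfr and Tubb2b ended without 1 or more single libraries. With all libraries kept, those of Col6a1, Hist1h2bg and Ngfr ended with a pseudocount of 0.1 and with no filter. That of Tubb2b ended with no filter, and those of Col6a1 and Hist1h2bg with the groups alone. The Hist1h2bg difference also ended with the replicate block and with the trend removed. Those of Igfbp4 (-0.14) and Ndufs8 (-0.19) ended with quantile normalization. Depth limits genes such as Hist1h2bg, at 4 to 26 fragments.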
